A study of Mus musculus with 9 samples.

Results

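Glutathione, thioredoxin and Nrf2 antioxidant genes were followed in the hearts of 9 male NSG mice by mRNA sequencing. The set holds 43 genes, taken from the deposited count table by their symbols, out of 13890 genes listed there. All 43 passed the filter on low counts, which left 13364 genes for the tests. The mice were 8 weeks old at surgery and were sampled 3 weeks later. The 3 sham mice (S, animals 2, 3 and 5) received saline in the spleen and weekly intraperitoneal saline. The 3 mice labelled as tumour hosts (T, animals 11, 12 and 15) received, by that label, HCT116 cells and weekly saline, but the label is in doubt, as described below. HCT116 is a human colorectal cancer line that seeds the liver from the spleen. The 3 hosts labelled A + T (animals 20, 21 and 22) received HCT116 cells and weekly intraperitoneal ACVR2B/Fc, a soluble activin receptor fused to an antibody Fc part, which binds activins, myostatin and related ligands. NSG mice carry the NOD scid background and lack the gamma chain of the interleukin-2 receptor, so every group lacked T, B and NK cells, while monocytes, macrophages and neutrophils remain in this strain.

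Nrf2, encoded by Nfe2l2, is a transcription factor that Keap1 holds in the cytoplasm and passes on for degradation. Oxidants and electrophiles modify Keap1, and Nrf2 then enters the nucleus, pairs with small Maf proteins and binds antioxidant response elements near genes such as Nqo1, Hmox1, Gclc and Gclm. Glutathione is made by glutamate-cysteine ligase and glutathione synthetase, is used by peroxidases, glutaredoxins and S-transferases and is regenerated by glutathione reductase, whereas thioredoxins and their reductases serve the peroxiredoxins. In the heart most of the oxidants come from mitochondria, and NADPH from Nnt and other enzymes supplies the reducing power of both systems.

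The promoters of the regulator Nfe2l2, of the raised genes Gclm and Nqo1 and of Txnip, the member with the widest fold change, are shown. These are 4 of the members whose library values are given below, and Nfe2l2 itself did not pass in any comparison. Each sequence is the 250 bases before the RefSeq start on GRCm38.p6, 5′ to 3′ along the gene. Capitals mark the core of the antioxidant response element (TGACNNNGC, on either strand) in Nfe2l2 and Gclm, and 2 copies of CACGAG with 5 bases between them in Txnip. Nqo1 held none of these letters in this window. The coordinates are chr2:75704664-75704913 on the minus strand for Nfe2l2, chr3:122245307-122245556 on the plus strand for Gclm, chr8:107403206-107403455 on the minus strand for Nqo1 and chr3:96557707-96557956 on the plus strand for Txnip.
Nfe2l2: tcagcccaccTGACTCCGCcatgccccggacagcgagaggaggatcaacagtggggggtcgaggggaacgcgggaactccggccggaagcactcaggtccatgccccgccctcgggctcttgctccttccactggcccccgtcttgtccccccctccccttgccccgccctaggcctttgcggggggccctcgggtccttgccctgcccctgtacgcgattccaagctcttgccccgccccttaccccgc
Gclm: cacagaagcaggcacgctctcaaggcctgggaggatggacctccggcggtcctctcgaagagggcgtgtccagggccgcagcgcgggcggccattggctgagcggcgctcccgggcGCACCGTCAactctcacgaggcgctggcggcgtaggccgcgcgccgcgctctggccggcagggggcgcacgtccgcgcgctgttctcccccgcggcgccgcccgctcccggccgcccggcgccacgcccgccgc
Nqo1: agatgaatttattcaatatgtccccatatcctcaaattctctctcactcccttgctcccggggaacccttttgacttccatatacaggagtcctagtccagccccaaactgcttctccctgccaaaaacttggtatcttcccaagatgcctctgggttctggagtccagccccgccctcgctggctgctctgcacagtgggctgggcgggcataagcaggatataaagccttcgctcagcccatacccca
Txnip: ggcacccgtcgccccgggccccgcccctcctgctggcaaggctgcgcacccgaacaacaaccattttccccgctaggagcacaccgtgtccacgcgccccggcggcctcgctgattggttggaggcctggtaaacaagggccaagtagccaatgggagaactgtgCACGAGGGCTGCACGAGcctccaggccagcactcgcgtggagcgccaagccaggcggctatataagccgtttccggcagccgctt

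The label of the T libraries is in doubt. Over 429 genes that the study lists, the log2 fold changes of these libraries against S followed those listed for HCT116 hosts loosely (Pearson r = 0.2754 across genes, 326 with the same sign). They followed closely those listed for mice given ACVR2B/Fc with no tumour (r = 0.9999, 428 with the same sign). For the A + T libraries against S, the values followed the sum of the changes listed for HCT116 vs. sham and for ACVR2B/Fc with HCT116 vs. HCT116 (429 with the same sign). That sum is the same whichever mice the listed HCT116 group stands for. Whether the labels of the libraries or the names in the list are exchanged cannot be told from these values. The name T is kept here for the libraries that carry it, and every direction printed for T belongs to those libraries, whatever the mice had received. No library labelled as ACVR2B/Fc alone was analysed here.

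The libraries held 12392222 to 19732471 counts, so that 3 counts corresponded to 0.152 to 0.242 CPM (counts scaled to a common library size with edgeR's TMM factors). Between hearts of a group the chi-square per gene on raw counts was 7.48 to 134, above what counting alone gives. It includes the single gene Rn45s, which held from 4.57% of the counts (animal 11) to 19.6% (animal 22). The lowest value came from animals 3 and 5, where Rn45s held 7.98% and 9.5%. The chi-square is therefore no measure of the spread of a typical gene. By the labels all hearts were extracted and sequenced at the same time, each library carries its own animal number, and P-values measure the spread between these libraries. The 8 cardiomyocyte markers checked were present in every library, at a summed 66043 to 71512 CPM in S, 54009 to 64783 in T and 49616 to 66813 in A + T. Airway and lung markers (5 of 10 listed were in the table) summed to 0.995 to 3.55 CPM in 7 libraries, but to 167.0 CPM in animal 12 of T and 1451 CPM in animal 22 of A + T. In whole hearts, fewer cells of a type and less RNA per cell cannot be told apart.

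Of the 43 antioxidant genes, 7 rose and 2 fell in T vs. S at an adjusted P under 0.05 (edgeR's quasi-likelihood test with Benjamini-Hochberg adjustment over 13364 genes). Over all genes tested, 10.3% rose and 11% fell. The share of the antioxidant genes that rose was above that of all genes, and the share that fell was below it. With rises and falls counted as 1 class, the share called was near that of all genes. The counts are small, and these shares were not tested. The thresholds of the study's methods were an unadjusted P under 0.05 together with a 1.5-fold difference. At these, 8 antioxidant genes passed (6 higher and 2 lower), against 14.2% of all genes (695 higher and 1204 lower of 13364). The median log2 fold change was 0.10 for the antioxidant genes and 0.00 for all genes, with 28 antioxidant genes above 0 and 15 below.

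In A + T vs. T, none of the 43 rose and 1 fell, against 3.09% and 2.79% of all genes, and 8 antioxidant genes were at an unadjusted P under 0.05, as were 2994 of all 13364 genes. DESeq2 and edgeR's likelihood ratio test called 2 antioxidant genes each in this comparison, both lower. At the study's thresholds 1 passed, against 8.11% of all genes. In A + T vs. S, 3 rose and none fell, against 4.67% and 3.64%, and 13 were at an unadjusted P under 0.05, as were 3489 of all 13364 genes. DESeq2 and the likelihood ratio test each gave 4 higher and 1 lower there. At the thresholds 5 passed, against 8.91% of all genes. The medians were 0.00 in A + T vs. T and 0.06 in A + T vs. S. The T libraries enter the first of these comparisons and the middle one with opposite sign, and the S libraries are shared as well, so their values are given side by side and no overlap was read.

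**Figure D1:**
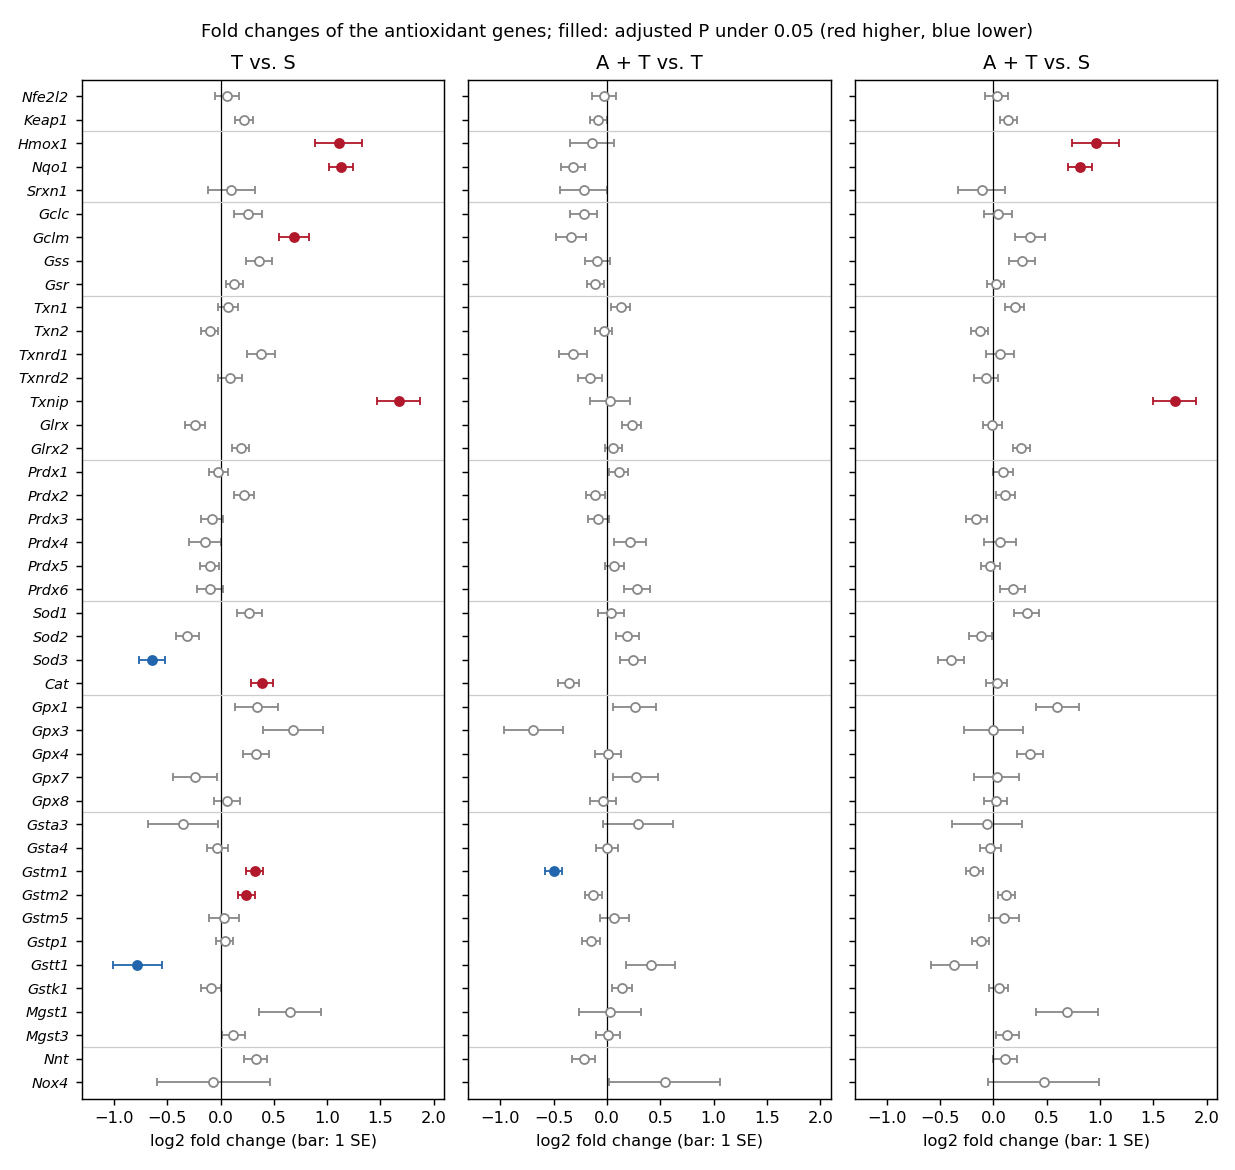
Log2 fold change (x axis) of each of the 43 antioxidant genes (y axis, ordered by role with grey lines between roles) in the 3 comparisons, with bars of 1 standard error from the edgeR fit. Filled points passed an adjusted P of 0.05, which 9 genes did in T vs. S, 1 in A + T vs. T and 3 in A + T vs. S.

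The regulators themselves did not pass the test in any comparison. Nfe2l2 (chr2:75675513-75704641 in the GENCODE annotation of GRCm38) was at 68.3, 71.6 and 76.5 CPM in S, 74.9, 70.1 and 80.6 CPM in T and 67.6, 66.5 and 86.3 CPM in A + T. The 3 groups overlapped, and T differed from S by 0.06 in log2 (standard error 0.11, adjusted P = 0.733, edgeR). Keap1, the cytoplasmic partner that marks Nrf2 for degradation (chr9:21229730-21239361), was at 49.5, 45.6 and 49.3 CPM in S, 58.5, 51.2 and 59.0 CPM in T and 51.2, 55.1 and 52.9 CPM in A + T. Every T library lay above every S library, with a log2 fold change of 0.22 (standard error 0.08) and an adjusted P of 0.0698, edgeR.

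Hmox1 and Nqo1 rose in the libraries labelled T and in A + T. Nqo1, a quinone reductase and a standard readout of Nrf2 activity (chr8:107388225-107403206), was at 41.3, 52.6 and 41.1 CPM in S, 91.6, 92.9 and 111 CPM in T and 77.4, 79.6 and 79.7 CPM in A + T. All T libraries were the highest, the A + T libraries lay close together below them, and neither group overlapped S. Nqo1 was 2.18-fold higher in T vs. S (log2 fold change 1.13, standard error 0.11, adjusted P = 0.000205, edgeR) and 1.75-fold higher in A + T vs. S (0.81, standard error 0.11, adjusted P = 0.00401, edgeR). A + T vs. T gave −0.32 (standard error 0.11, adjusted P = 0.118, edgeR).

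Hmox1, the stress-induced heme oxygenase (chr8:75093621-75100589), was at 6.36, 5.48 and 7.59 CPM in S, 11.2, 14.4 and 16.3 CPM in T and 9.59, 16.2 and 12 CPM in A + T. The S libraries were all below the other 6, and T and A + T overlapped. It was 2.15-fold higher in T vs. S (log2 fold change 1.11, standard error 0.22, adjusted P = 0.00536, edgeR) and 1.95-fold higher in A + T vs. S (0.96, standard error 0.22, adjusted P = 0.0249, edgeR). The call in A + T vs. S was lost without animal 2 or 3 of S or animal 21 of A + T, with log2 values of 0.74 to 0.96 and an adjusted P of up to 0.101, edgeR. Srxn1, which reduces overoxidised peroxiredoxins, is also a target of Nrf2 but did not pass, at 22.3 ± 2.08 CPM in S, 24.1 ± 7.71 CPM in T and 20.6 ± 4.53 CPM in A + T (SD, n = 3).

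Of the 4 genes of glutathione synthesis and recycling, Gclm rose in T vs. S. Gclm, the modifier subunit of glutamate-cysteine ligase (chr3:122245557-122270732), was at 15.8, 15.3 and 17.7 CPM in S, 25.8, 29.1 and 23.3 CPM in T and 16.9, 20.3 and 24.6 CPM in A + T. T lay above S without overlap, and A + T spread from the level of S to that of T. It was 1.61-fold higher in T vs. S (log2 fold change 0.69, standard error 0.14, adjusted P = 0.00676, edgeR). A + T vs. T gave −0.34 (adjusted P = 0.176, edgeR), and without animal 22 it gave −0.50 (adjusted P = 0.0404, edgeR). That fit called 7.53% of all genes in A + T vs. T. Without animal 12 the value was −0.26 and without animal 15 it was −0.42 (adjusted P = 0.372 and 0.145, edgeR). The catalytic subunit Gclc, glutathione synthetase Gss and glutathione reductase Gsr had log2 fold changes of 0.26, 0.36 and 0.13 in T vs. S and did not pass, with Gss nearest to the threshold (11.1 ± 1.11 CPM in S and 14.2 ± 1.65 CPM in T, adjusted P = 0.0594, edgeR).

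Txnip rose furthest of the 43 genes in T vs. S and in A + T vs. S. It encodes an arrestin-like protein that binds reduced thioredoxin and limits glucose uptake, and it is known to be induced by glucose through MondoA and ChREBP at its promoter. Txnip (chr3:96557957-96561883) was at 287.5, 450.4 and 529 CPM in S, 1534, 1249 and 1257 CPM in T and 1530.2, 1347 and 1245 CPM in A + T. The 3 S libraries differed among themselves by more than those of the other groups in proportion to their level, and all were far below T and A + T, which overlapped. The fold changes were 3.19 in T vs. S (log2 fold change 1.67, standard error 0.20, adjusted P = 0.00045, edgeR) and 3.25 in A + T vs. S (1.70, standard error 0.20, adjusted P = 0.00215, edgeR). A + T vs. T gave 0.03 with a standard error of 0.19.

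The other 6 genes of the thioredoxin and glutaredoxin group did not pass in any comparison. Thioredoxin itself (Txn1, 42.4 ± 1.69 CPM in S) and mitochondrial thioredoxin (Txn2, 182.4 ± 14.7 CPM) had log2 fold changes of 0.07 and −0.10 in T vs. S. The cytosolic reductase Txnrd1, a selenoprotein and another target of Nrf2, was at 55.1 ± 4.57 CPM in S, 71.8 ± 13.4 CPM in T and 57.5 ± 5.17 CPM in A + T (SD, n = 3), with an adjusted P of 0.0588 in T vs. S, edgeR. Its mitochondrial counterpart Txnrd2 had a log2 fold change of 0.09. The glutaredoxins, which use glutathione to reduce mixed disulfides, had opposite signs, with −0.24 for Glrx and 0.19 for the mitochondrial Glrx2.

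**Figure D2:**
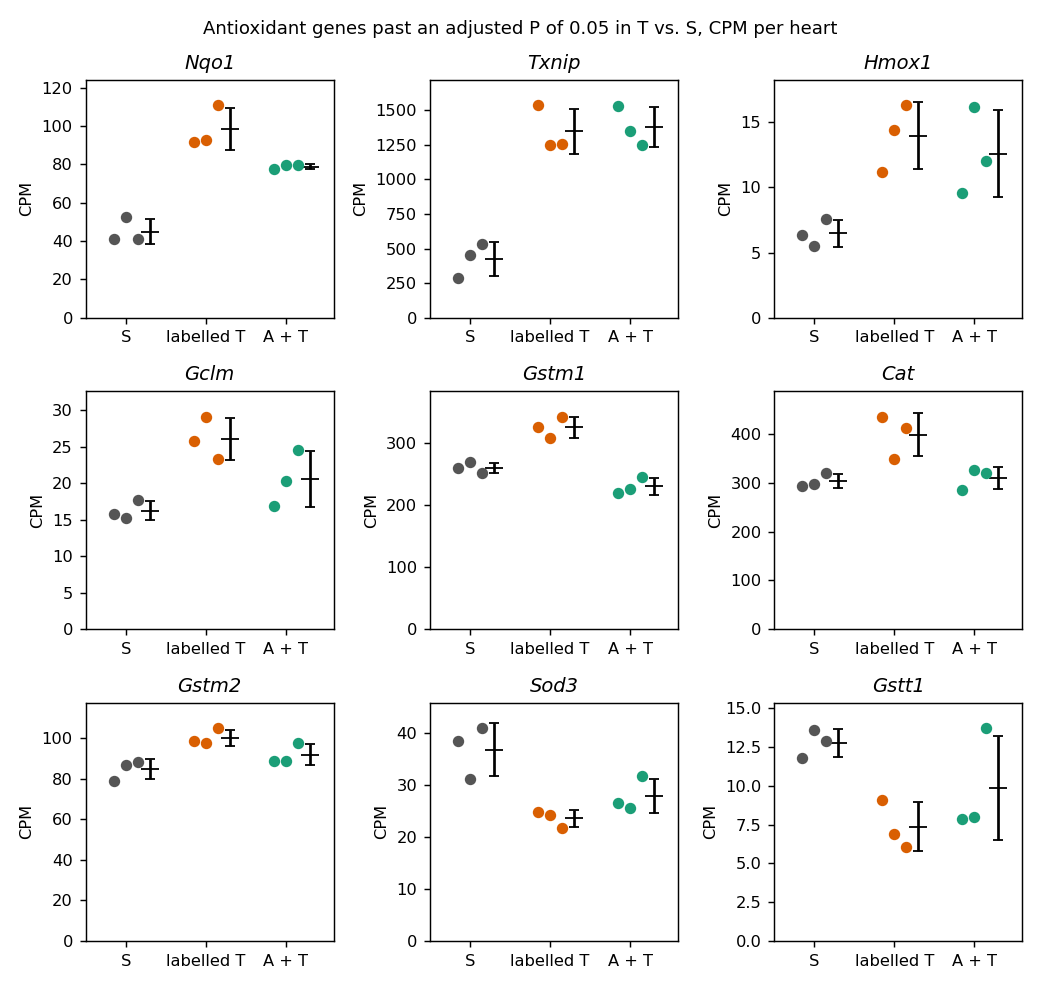
CPM (y axis, from 0) of the 9 antioxidant genes that passed an adjusted P of 0.05 in T vs. S, 1 point per heart by group (x axis), with the mean and SD of 3 animals as a black bar. S lies apart from the libraries labelled T in each panel, Txnip, Nqo1 and Hmox1 are also higher in A + T than in S, and Gstm1 is lowest in A + T.

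Among the superoxide dismutases and catalase, Cat rose and Sod3 fell in T vs. S. Cat, the peroxisomal catalase (chr2:103453849-103485160), was at 292.4, 297.8 and 319.1 CPM in S, 434.5, 348.9 and 411 CPM in T and 284.2, 325.1 and 319.5 CPM in A + T. T lay above both other groups, which overlapped. The log2 fold change was 0.39 in T vs. S (standard error 0.10, adjusted P = 0.0179, edgeR), and A + T vs. T gave −0.36 (standard error 0.10, adjusted P = 0.0577, edgeR). The call in T vs. S was lost without animal 2 or 3 of S or animal 11 of T, with an adjusted P of up to 0.0722, and when counts were scaled by library totals (0.125). Without animal 12, the value in A + T vs. T was −0.45, with an adjusted P of 0.0341 from edgeR. Without animal 15 it was −0.34 and without animal 22 it was −0.39 (adjusted P = 0.122 and 0.0501, edgeR).

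Sod3, the extracellular superoxide dismutase (chr5:52363791-52371418), was at 38.3, 31.1 and 40.8 CPM in S, 24.7, 24.1 and 21.7 CPM in T and 26.5, 25.5 and 31.6 CPM in A + T. The T libraries were the lowest without overlap, and the highest A + T library lay just above the lowest of S. It was 1.56-fold lower in T vs. S (log2 fold change −0.64, standard error 0.12, adjusted P = 0.00481, edgeR). In A + T vs. S it was −0.40 (adjusted P = 0.068, edgeR), and without animal 22 it was −0.49 (adjusted P = 0.0343, edgeR).

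Fibroblast and endothelial markers fell together with Sod3 in T vs. S. All 6 fibroblast markers fell in T vs. S, with a summed 1350.4 to 1554 CPM in S, 813 to 939.6 CPM in T and 1035 to 1509 CPM in A + T, and 4 of 5 endothelial markers fell, with 733 to 861 CPM in S, 414.5 to 521 CPM in T and 548 to 666 CPM in A + T. The mean of Sod3 was 36.7 CPM in S, 27.9 CPM in A + T and 23.5 CPM in T, and both sums were also lowest in T. Within groups the order of the hearts in Sod3 differed from that in either sum, but 3 hearts are too few to read an order. No marker of either list was at 0 in any library, and their part in the fall of Sod3 was not tested. Other non-muscle lists differed, as 3 of 9 macrophage markers rose in T vs. S and no mesothelium marker was called. The cytosolic Sod1 and the mitochondrial Sod2 had log2 fold changes of 0.27 and −0.31 in T vs. S and did not pass (adjusted P = 0.121 and 0.0662, edgeR). Sod2 was at 713 ± 29.2 CPM in S, 574.5 ± 55.6 CPM in T and 654.6 ± 78.8 CPM in A + T (SD, n = 3).

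None of the 6 peroxiredoxins, thiol peroxidases that draw on thioredoxin or, for Prdx6, on glutathione, passed in any comparison. In T vs. S their log2 fold changes ran from −0.15 for Prdx4, the form of the endoplasmic reticulum, to 0.22 for the cytosolic Prdx2, and in A + T vs. T from −0.11 for Prdx2 to 0.28 for Prdx6. Prdx1, the mitochondrial Prdx3 and Prdx5 had −0.02, −0.08 and −0.10 in T vs. S, with standard errors of 0.09, 0.10 and 0.09.

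None of the 5 glutathione peroxidases passed after adjustment. Gpx3, the secreted plasma form, passed those thresholds as higher in T vs. S and as lower in A + T vs. T. It was at 631, 634 and 695 CPM in S, 934, 1522 and 692 CPM in T and 501, 551.5 and 902 CPM in A + T. Animal 12 of T and animal 22 of A + T stood above the other libraries of their groups, and all 3 groups overlapped. The log2 fold changes were 0.68 (standard error 0.28, adjusted P = 0.105, edgeR) in T vs. S and −0.69 (standard error 0.28, adjusted P = 0.175, edgeR) in A + T vs. T. Without animal 12 these were 0.31 and −0.32. The value of A + T vs. T was −1.0 without animal 22 (adjusted P = 0.0402, edgeR), and that of T vs. S was 0.92 without animal 15 (adjusted P = 0.037, edgeR).

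Animal 12, the library with the most Gpx3, also held the most counts of the fat cell markers Adipoq (263, against 2 to 60 elsewhere) and Cfd (836, against 10 to 124). The 5 fat cell markers in the table summed to 290.3 to 364.5 CPM in S, 301 to 370.2 CPM in T and 368.5 to 519.9 CPM in A + T, most of it from Fabp4, which the heart itself expresses. Their part in the level of Gpx3 was not tested.

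Gpx1, the cytosolic form, was at 72.7, 62.0 and 75.2 CPM in S, 80.0, 108.6 and 76.2 CPM in T and 74.7, 105.3 and 138 CPM in A + T. Its 3 highest libraries, animals 12, 21 and 22, were also the 3 highest in the summed erythroid markers (306.9, 315 and 370.3 CPM, against 76.6 to 161 CPM elsewhere, from the 4 of 9 listed that were in the table), and their part in Gpx1 was not tested. Gpx1 passed the study's thresholds in A + T vs. S (log2 fold change 0.60, standard error 0.20, adjusted P = 0.0956, edgeR). Gpx4, which protects membranes from lipid peroxides, had log2 fold changes of 0.33 in T vs. S and 0.34 in A + T vs. S (adjusted P = 0.0754 and 0.105, edgeR). The endoplasmic reticulum forms Gpx7 and Gpx8 had −0.24 and 0.06 in T vs. S.

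The 10 glutathione S-transferases, which couple glutathione to electrophiles, held 3 genes that moved in T vs. S and the member that moved in A + T vs. T. Gstm1 (chr3:108012255-108017973), an abundant mu-class enzyme, was at 259, 269 and 252 CPM in S, 326, 308 and 342 CPM in T and 219, 225.5 and 246 CPM in A + T. The 3 groups did not overlap, with T highest and A + T lowest. The log2 fold change was 0.32 in T vs. S (standard error 0.08, adjusted P = 0.0162, edgeR) and −0.50 in A + T vs. T (standard error 0.08, adjusted P = 0.00838, edgeR), and A + T vs. S gave −0.18 (adjusted P = 0.186, edgeR). The fall in A + T vs. T was called in all 9 fits that left out an animal (adjusted P of up to 0.0479), whereas the rise in T vs. S was lost without animal 2 or 5 of S or animal 11 of T (adjusted P of up to 0.0673). With library totals neither was called (adjusted P = 0.0675 and 0.205, edgeR).

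Gstm2 (chr3:107981702-107986453), a neighbour and relative of Gstm1, was at 78.9, 86.6 and 88.3 CPM in S, 98.5, 97.4 and 104.8 CPM in T and 88.7, 88.9 and 97.7 CPM in A + T. T lay above S, and A + T lay between them with its highest library inside the range of T. Its rise in T vs. S (log2 fold change 0.24, standard error 0.08, adjusted P = 0.047, edgeR) was called in 1 of 9 fits with an animal left out, the fit without animal 22, with an adjusted P of up to 0.149 in the others, and under 7 of 11 other settings. The mu-class genes are close copies of each other, and the authors counted uniquely mapped reads, so reads in shared stretches do not enter these values. Gstm5, the third mu-class member, had a log2 fold change of 0.03.

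Gstt1 (chr10:75783813-75798584), a theta-class enzyme, was at 11.8, 13.6 and 12.9 CPM in S, 9.11, 6.90 and 6.08 CPM in T and 7.85, 7.97 and 13.7 CPM in A + T. T was below S without overlap, and in A + T animal 22 stood at the level of S while the other animals stood at that of T. Gstt1 was 1.72-fold lower in T vs. S (log2 fold change −0.78, standard error 0.23, adjusted P = 0.0325, edgeR), called in 4 of 9 fits with an animal left out. It was lost without each of the S animals and without animal 12 or 15 of T (adjusted P of up to 0.0987). The value in A + T vs. S was −0.37, and without animal 22 −0.68 (adjusted P = 0.0409, edgeR).

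The remaining transferases did not pass in any comparison. Gsta4, which handles the lipid peroxidation product 4-hydroxynonenal, had log2 fold changes of −0.03 in both comparisons with S and 0.00 in A + T vs. T, each with a standard error of 0.10. The pi-class Gstp1, the mitochondrial and peroxisomal Gstk1 and the membrane-bound Mgst3 had 0.04, −0.09 and 0.12 in T vs. S. Mgst1, the microsomal form, was at 22.5 ± 4.65 CPM in S, 35.2 ± 5.0 CPM in T and 36.0 ± 18.2 CPM in A + T (SD, n = 3), with log2 fold changes of 0.65 and 0.69 against S (adjusted P = 0.135 and 0.165, edgeR). Without animal 22 the value in A + T vs. S was 0.19. Gsta3 had −0.35 in T vs. S with a standard error of 0.33.

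Nnt, the mitochondrial transhydrogenase that makes NADPH, was at 1138 ± 44.7 CPM in S, 1428 ± 104 CPM in T and 1228 ± 169.8 CPM in A + T (SD, n = 3), with a difference of 0.33 in log2 between T and S (adjusted P = 0.0586, edgeR). Nox4, a NADPH oxidase that releases hydrogen peroxide, was the lowest member at 2.19 ± 0.588 CPM in S, and its difference of −0.07 in T vs. S had a standard error of 0.53, too wide to show a change of the size seen in other members. Of the 7 mitochondrial members (Txn2, Txnrd2, Prdx3, Sod2, Glrx2, Nnt and Gstk1), none passed in any comparison, and neither did any of the 5 selenoproteins (Gpx1, Gpx3, Gpx4, Txnrd1 and Txnrd2).

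Animal 22 stood apart in these genes as in its airway markers. It was the highest of the 9 libraries for 17 of 43 antioxidant genes (39.5%) and for 18.2% of all genes tested. Relative to the mean of animals 20 and 21 it held 3.54 times the Nox4, 2.47 times the Gsta3, 2.23 times the Mgst1 and 1.41 times the Prdx6. Prdx6, which is abundant in lung, was at 256.8 CPM there and at 168 to 187.1 CPM in the other 8 libraries. Of the 5 airway and lung markers in the table, Scgb1a1 held 17508 counts in this library, Sftpb 3230 and Ager 2809, whereas Scgb3a1 held 7 and Bpifa1 none. In animal 12 Scgb1a1 held 1345, Bpifa1 1054 and Scgb3a1 394, whereas Sftpb held 10 and Ager 7. In animal 22 neutrophil markers (3 of 6 listed were in the table) summed to 170.1 CPM, against 1.66 to 17.8 CPM elsewhere. Scgb1a1 was at 0 in animals 2, 20 and 21. The part of these cells in the levels of the antioxidant genes was not tested.

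**Figure D3:**
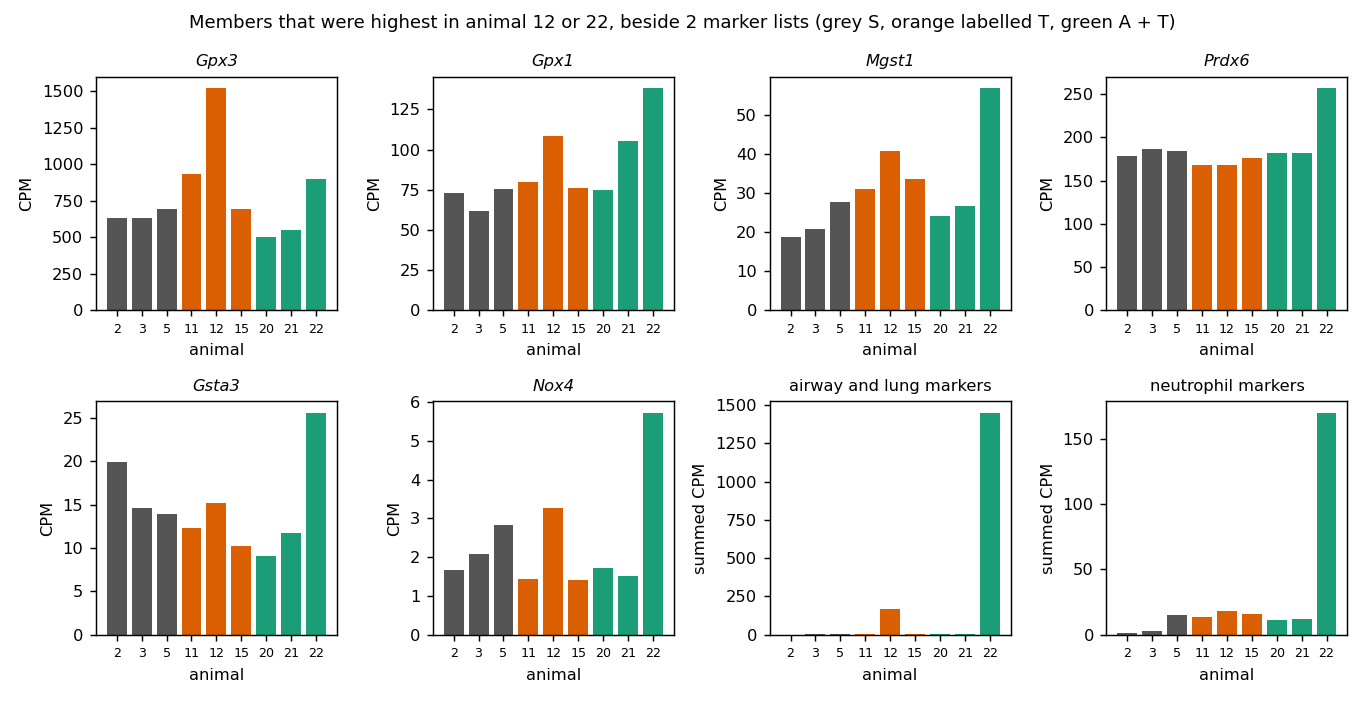
CPM (bars, y axis from 0) of 6 antioxidant genes and the summed CPM of the airway and lung and the neutrophil markers in each of the 9 animals (x axis, grey S, orange labelled T, green A + T). Gpx3 peaks in animal 12, the other 5 genes and both marker lists in animal 22.

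The number of calls also moved with that library. Without animal 22, 19 antioxidant genes were called in T vs. S, together with 28.3% of all genes. No A + T library belongs to either group, but all groups share the same estimate of the spread in the fit. The 19 included the 9 above, and the 10 gained were Gpx3, Gpx4, Gss, Keap1, Mgst1, Nnt, Prdx2, Sod1, Sod2 and Txnrd1. Without animal 2 of S, 5 were called (Nqo1, Txnip, Hmox1, Gclm and Sod3) and 13.4% of all genes. With animals 12 and 22 both left out, an alternative chosen after the data were seen, 17 were called in T vs. S, 3 in A + T vs. T (Gstm1, Cat and Gpx3, all lower) and 5 in A + T vs. S (Txnip, Nqo1 and Hmox1 higher, Sod3 and Gstt1 lower). The same fits called 26.4%, 6.55% and 9.42% of all genes. Nqo1, Txnip, Hmox1, Gclm and Sod3 in T vs. S, and Nqo1 and Txnip in A + T vs. S, were called in every one of the 9 fits with an animal left out and under all 11 other settings.

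Levels were compared between genes on the deposited log2 values, whose scaling by gene length was inferred here from their offset to log2 CPM. The length this offset implies followed the longest annotated transcript across the 43 genes (r = 0.723 on a log10 scale, across genes, which are not independent), but it was 1.57 kb against 1.57 for Hmox1 and 0.651 kb against 3.97 for Sod1. The peroxiredoxin Prdx5 was the highest of the 43 in S, at a log2 value of 8.75 ± 0.05, next to Gpx3 at 8.74 ± 0.08 (SD, n = 3), and these neighbours did not differ beyond their spread. Mgst3 (8.40 ± 0.13) and Prdx2 (8.31 ± 0.06) followed, also within their spread. Txnip was at position 12 of 43 in S, at 7.18 ± 0.46, at position 2 in T, at 8.90 ± 0.17, and at position 1 in A + T, at 8.92 ± 0.15. Nqo1 was at position 24 in S and 20 in T, and Hmox1 at 42 and 35. Nox4 was the lowest in each group, at −0.78 ± 0.36 in S.

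**Figure D4:**
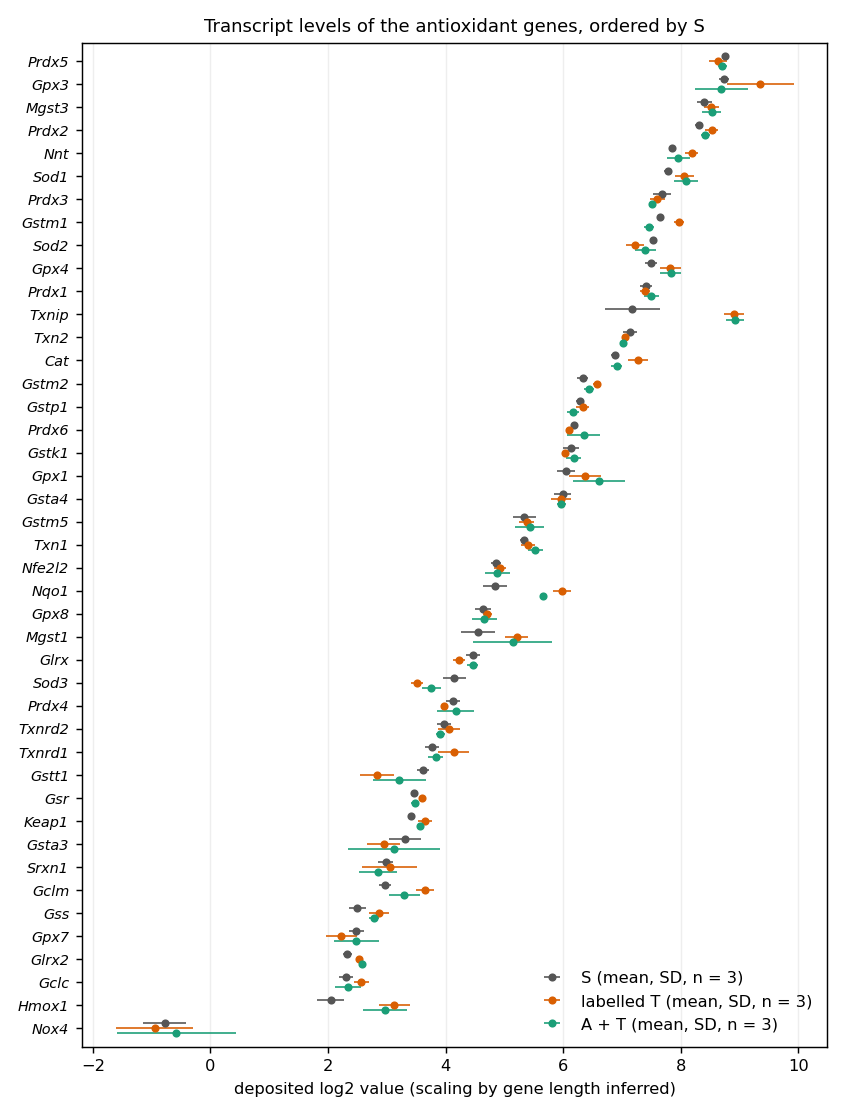
Deposited log2 value, inferred to be scaled by gene length (x axis, mean and SD of 3 animals), of the 43 antioxidant genes ordered by their level in S (y axis), with S in grey, the libraries labelled T in orange and A + T in green. The levels span from −0.78 for Nox4 to 8.75 for Prdx5 in S, and Txnip moves from 7.18 in S to 8.90 and 8.92.

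RefSeq promoters of 36 of the 43 genes were at hand (250 bases before to 50 after each start, GRCm38.p6). The letters TGACNNNGC were found on either strand in promoters of 9 of these genes (25.0%), Gclm, Nfe2l2, Gsta3, Gstm5, Mgst1, Prdx1, Sod1, Srxn1 and Txnrd1, and in 14% of all 27025 genes with a promoter. Of these 9, Gclm rose in T vs. S and none of the others passed, and of the 27 without the letters 5 rose and 1 fell. No promoter was at hand for Hmox1 and Sod3, which also passed in T vs. S. Bases outside this window were not searched, so a gene without the letters here is not shown to lack the element. The median log2 fold change in T vs. S was 0.10 with the letters and 0.09 without. The E-box CACGTG stood in promoters of 2 of the 36 (5.56%, Glrx2 and Prdx4), against 8.09% of all genes. The pair of CACGAG with 5 bases between, the layout of a carbohydrate response element, was searched after the Txnip promoter had been read and stood in that promoter, from position −85, and in no other of 32851. A match is a description of the letters and not a site of binding.

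Other genes of the pathway came from a list of 101, of which 90 were tested. In T vs. S 14 rose and 5 fell, in A + T vs. T 4 rose and 1 fell, and in A + T vs. S 8 rose and 1 fell, with medians of 0.03, 0.04 and 0.07. Over all genes 10.3% rose and 11% fell in T vs. S, 3.09% and 2.79% in A + T vs. T, and 4.67% and 3.64% in A + T vs. S. In each comparison the pathway share that rose was above that of all genes, and the share that fell was below it. The list was chosen with earlier results known and the counts are small, so these shares were not tested. The 4 largest rises in T vs. S were Chac1, which degrades glutathione (log2 fold change 1.74, standard error 0.36, adjusted P = 0.00755, edgeR), Maff, a small Maf partner of Nrf2 (1.18, standard error 0.27), Arrdc3, an arrestin-domain relative of Txnip (0.91, standard error 0.15), and Cth, which makes cysteine (0.85, standard error 0.24). The 4 largest falls were Duox1, an oxidase with 15.2 counts on average (−1.96, standard error 0.58), Anpep, an aminopeptidase that splits products of glutathione breakdown (−1.14, standard error 0.21), Chac2, a relative of Chac1 (−0.50, standard error 0.15), and Glrx5, a mitochondrial glutaredoxin of iron-sulfur cluster assembly (−0.35, standard error 0.08).

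Sqstm1, the autophagy receptor p62 that binds Keap1, fell in A + T vs. T, where it was the single pathway gene to do so. It was at 436.5 ± 16.8 CPM in S, 743.5 ± 38.5 CPM in T and 514.7 ± 36.9 CPM in A + T (SD, n = 3). It differed by −0.53 in A + T vs. T (standard error 0.08, adjusted P = 0.00868, edgeR) and by 0.77 in T vs. S (standard error 0.09, adjusted P = 0.000322, edgeR). Arrdc4, the closest relative of Txnip and another gene known to follow MondoA, rose in A + T vs. T (0.80, standard error 0.18, adjusted P = 0.0329, edgeR) and was at −0.55 in T vs. S (adjusted P = 0.0549, edgeR), where Txnip was at 0.03 and 1.67. The part of MondoA in either gene was not tested. Anpep rose by 0.95 in A + T vs. T (adjusted P = 0.0315, edgeR).

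Cybb, Ncf4 and Ncf1, subunits of the phagocyte NADPH oxidase that makes superoxide in macrophages and neutrophils, rose in A + T vs. S. Cybb, the catalytic subunit, was at 10.6 ± 0.846 CPM in S, 12.9 ± 6.26 CPM in T and 34.6 ± 5.13 CPM in A + T (SD, n = 3). The difference was 1.71 in A + T vs. S (standard error 0.26, adjusted P = 0.00635, edgeR) and 1.40 in A + T vs. T (adjusted P = 0.0163, edgeR). The cytosolic subunits Ncf4 and Ncf1 rose by 1.57 and 1.22 in A + T vs. S. The single fall in A + T vs. S was Txndc12, a thioredoxin-like protein of the endoplasmic reticulum (−0.39, adjusted P = 0.019, edgeR).

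Macrophage markers rose in A + T vs. S, as these subunits did. In T vs. S no oxidase subunit tested was called higher, and Ncf4 and Ncf1 were not called in A + T vs. T (adjusted P = 0.102 and 0.0643, edgeR). Of 9 macrophage markers tested, 8 rose in A + T vs. S, 5 in A + T vs. T and 3 in T vs. S. Their sum was 361 to 399 CPM in S, 346 to 450.0 CPM in T and 596 to 838 CPM in A + T, with none at 0. Their part in the rise of the oxidase subunits was not tested.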

How the data were processed

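Heart mRNA of 9 mice was analysed. The authors enriched mRNA, sequenced 75-base paired ends, aligned to mm10 with STAR (named with FastQC and edgeR in the submitters' processing notes) and, by the paper's methods, assigned uniquely mapped reads to refGene genes with featureCounts, with strand. The deposited counts are not normalized, and the deposited log2 values are normalized and, per gene, differ from log2 CPM by a constant, as when scaled by length. A block of 3443 blank lines held no gene.

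The groups came from the labels. Genes were dropped where over 4 libraries had a CPM below 0.5, and all 9 libraries were fitted together with edgeR 4.0.16 (quasi-likelihood test, TMM, R 4.3.3). Alternatives were the likelihood ratio test, DESeq2 1.42.0, limma 3.58.1 (voom, or the deposited log2 values), other scalings and filters, each pair of groups alone and each animal left out. The steps were tested on simulated data. The antioxidant genes and all lists were chosen with earlier results of these data known.

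Library values are given for Nfe2l2, Keap1, Hmox1, members called in A + T vs. T and the up to 15 called with the smallest adjusted P in T vs. S, and up to 4 pathway genes per direction with a mean of at least 10 counts. Gpx1 and Gpx3 were added after their values were seen. Coordinates are from GENCODE on GRCm38, promoters from RefSeq. An exact permutation test of 3 hearts against 3 cannot go below P = 0.1, so none was used. The list of the authors' own comparisons (fold changes and P-values) served to check the labels and for no result. Intervals of depth cover counting error only. Some pathway genes are not reported here by name.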

Additional observations from a re-analysis of the deposited data

How the results depend on the processing

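None of the 13 calls among the antioxidant genes reversed direction under the settings tried, and 5 of 9 calls in T vs. S held in every setting. The number of antioxidant genes called in T vs. S, 9, was 14 with DESeq2 and 17 without animals 12 and 22 (chosen after the data were seen), and 5 to 19 with 1 animal left out. With the compared groups alone it was 13, where 1691 of all genes rose and 1711 fell. In A + T vs. T the 1 called became 2 with DESeq2 and with the likelihood ratio test, 0 with library totals and 3 without animals 12 and 22 (1 to 3 with 1 animal left out), and the 1 at the study's thresholds became 0 with DESeq2 and with the compared groups alone and 2 without animals 12 and 22 (0 to 2). In A + T vs. S the 3 called became 5 with DESeq2, with the likelihood ratio test and without animals 12 and 22 (2 to 5), and the 5 at the thresholds became 3 with limma-voom and with the deposited log2 values (3 to 5). Other pathway genes called were 9 in T vs. S with library totals against 19 (10 to 25 with 1 animal left out), 10 with DESeq2 and 1 with the compared groups alone in A + T vs. T against 5 (0 without animal 11 of T, to 8 without animal 22), and 14 with DESeq2 and 5 with library totals in A + T vs. S against 9 (2 without animal 3 of S, to 11). The thresholds in T vs. S gave 6 to 8. With 1 animal left out the medians lay between 0.09 and 0.16, −0.10 and 0.04, and 0.00 and 0.13 in the 3 comparisons. The cause of these shifts was not tested. No paired analysis was possible because the labels give the groups no shared replicate numbers. With 3 hearts a group and 12392222 to 19732471 counts a library, a gene that did not pass is not shown to be equal, and Nox4 had the widest standard errors of the 43 antioxidant genes, 0.52 to 0.53.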
